A study of Mus musculus with 16 samples.

Results

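The genes described here are 40 interferon-stimulated genes, measured in whole mouse brain with and without an experimental stroke. They were given as a list of names, and each was taken as the probe set whose only gene symbol in the platform annotation was that name. All 40 were found among the 19938 genes of the table, 39 of them with 1 such probe set. Irf1 had 2, and the one with the higher mean was used. Expression was measured on Affymetrix Mouse Gene 1.0 ST arrays in brains of male mice 8 weeks old. There were 4 groups of 4 arrays: naive C57BL/6, C57BL/6 at 24 h after permanent middle cerebral artery occlusion (pMCAO, a model of ischaemic stroke), naive mice labelled TNF knockout, and mice labelled TNF knockout at 24 h after pMCAO. No sham-operated mice were among the samples, and a difference between stroke and naive therefore holds surgery and occlusion together.

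Interferons are secreted proteins that cells release when their sensors detect foreign or misplaced nucleic acid. Type I interferons bind a receptor on neighbouring cells, whose kinases activate Stat2, and this joins Irf9 in a complex that binds interferon-response elements near the start of its target genes. Many of the targets restrict viruses, some of them (Irf7, Stat2, Irf9) belong to the pathway itself, and microglia, astrocytes, endothelial cells and infiltrating leukocytes are all known to express them in brain. In RNA from whole brain, a change in the number of such cells and a change in RNA per cell cannot be told apart.

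The element shows in the DNA before several of the genes with the clearest changes. The first set printed below is the 200 bases before the annotated start of each gene, from RefSeq on mouse GRCm38.p6, written 5′ to 3′ along the gene's own strand. Where a gene had more than 1 annotated start, as Gbp3 did with 2, the start with the most matches was taken. Capitals mark every match, on either strand, to the core of the interferon-stimulated response element: TTTC, then NN (any 2 bases), then TTTC again. Ifit1 (chr19:34640689-34640888, plus strand) and Ifit3 (chr19:34583329-34583528, plus strand) stand for the IFIT family, Irgm1 (chr11:48871421-48871620, minus strand) and Gbp3 (chr3:142559844-142560043, plus strand) for the GTPases. Rsad2 (chr12:26456453-26456652, minus strand) and Cmpk2 (chr12:26469015-26469214, plus strand) are neighbours on chromosome 12 that differed in their change after stroke. Irf7 (chr7:141266425-141266624, minus strand) is shown as a changed gene without a match in this window.
Ifit1: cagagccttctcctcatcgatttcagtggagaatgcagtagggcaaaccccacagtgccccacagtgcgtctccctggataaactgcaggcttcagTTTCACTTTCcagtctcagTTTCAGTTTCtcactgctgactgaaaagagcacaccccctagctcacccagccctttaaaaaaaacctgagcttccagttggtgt
Ifit3: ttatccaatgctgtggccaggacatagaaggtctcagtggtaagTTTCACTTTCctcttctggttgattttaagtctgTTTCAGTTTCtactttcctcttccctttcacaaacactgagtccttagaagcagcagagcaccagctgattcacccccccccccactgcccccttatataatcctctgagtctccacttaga
Irgm1: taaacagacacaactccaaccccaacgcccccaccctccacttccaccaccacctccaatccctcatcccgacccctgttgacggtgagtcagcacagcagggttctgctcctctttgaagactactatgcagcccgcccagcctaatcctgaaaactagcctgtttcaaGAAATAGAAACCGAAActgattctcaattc
Gbp3: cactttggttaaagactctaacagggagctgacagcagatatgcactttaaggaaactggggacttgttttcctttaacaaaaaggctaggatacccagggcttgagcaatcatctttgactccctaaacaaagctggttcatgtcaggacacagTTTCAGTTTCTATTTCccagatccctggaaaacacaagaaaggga
Rsad2: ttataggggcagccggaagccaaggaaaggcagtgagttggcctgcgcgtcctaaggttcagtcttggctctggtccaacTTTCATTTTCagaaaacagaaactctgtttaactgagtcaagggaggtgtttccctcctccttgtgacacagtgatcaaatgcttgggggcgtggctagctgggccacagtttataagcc
Cmpk2: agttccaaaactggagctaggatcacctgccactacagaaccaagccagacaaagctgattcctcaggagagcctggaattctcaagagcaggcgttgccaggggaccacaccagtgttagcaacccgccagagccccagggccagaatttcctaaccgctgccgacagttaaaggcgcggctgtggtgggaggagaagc
Irf7: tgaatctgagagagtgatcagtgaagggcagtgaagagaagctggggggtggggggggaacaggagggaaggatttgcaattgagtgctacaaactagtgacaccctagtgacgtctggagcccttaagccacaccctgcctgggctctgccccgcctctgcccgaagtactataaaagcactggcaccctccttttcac
In Ifit1 and Ifit3 the matches are 2 separate copies, and in Irgm1 and Gbp3 they are 2 copies that overlap in 1 run.

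The second set holds 30 bases around the match in 5 other members. Stat2 (chr10:128270266-128270295, plus strand), Trim30a (chr7:104465210-104465239, minus strand) and Ifitm3 (chr7:141010714-141010743, minus strand) passed the test after stroke in arrays of the knockout label. Oas1a (chr5:120907523-120907552, minus strand) and Bst2 (chr8:71537580-71537609, minus strand) hold overlapping copies too and did not pass it.
Stat2: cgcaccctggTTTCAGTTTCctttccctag
Trim30a: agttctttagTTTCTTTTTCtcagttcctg
Ifitm3: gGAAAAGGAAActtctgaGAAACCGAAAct
Oas1a: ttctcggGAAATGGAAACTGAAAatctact
Bst2: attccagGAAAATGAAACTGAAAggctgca
In Ifitm3 the matches lie just after the annotated start. Trim30a has 2 annotated starts. The printed match lies before one of them, and a match just after the other is not printed. Whether these are the same bases was not examined.

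Of the 40 members, 30 had an entry in the promoter table, which covers 250 bases before to 50 after each start. A gene with several starts was counted if a match lay near any of them. The core motif, on either strand, was found in 13 of these 30 (43.3%). Over all 27025 genes of the table it was found in 1079 (3.99%). The longer form with AG before it was found in 8 of the 30 members and in 0.303% of all genes. The shorter form TTCNNTTT, which every copy of the core motif also contains, was found in 21 of the 30 and in 26.4% of all genes.

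After stroke in the knockout label, 8 of the 13 members with the core motif passed the test described below, and 3 of the 17 without it did. The median log2 change was 0.75 in the first set and 0.39 in the second. In C57BL/6 all 4 members that passed were among the 13, and the medians were 0.44 and 0.18. With the shorter form the split was small: 8 of 21 members with it and 3 of 9 without it passed in the knockout label, with medians of 0.41 and 0.39. The 3 that passed without a match were Irf7, Irf9 and Oasl2. Bst2 and Oas1a, with overlapping copies of the motif, changed by -0.02 and 0.22 in the knockout label. Mx1, Mx2, Usp18 and Rtp4 also passed and had no entry in the promoter table. A match is a description of these letters and does not show that a factor bound there.

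**Figure D1:**
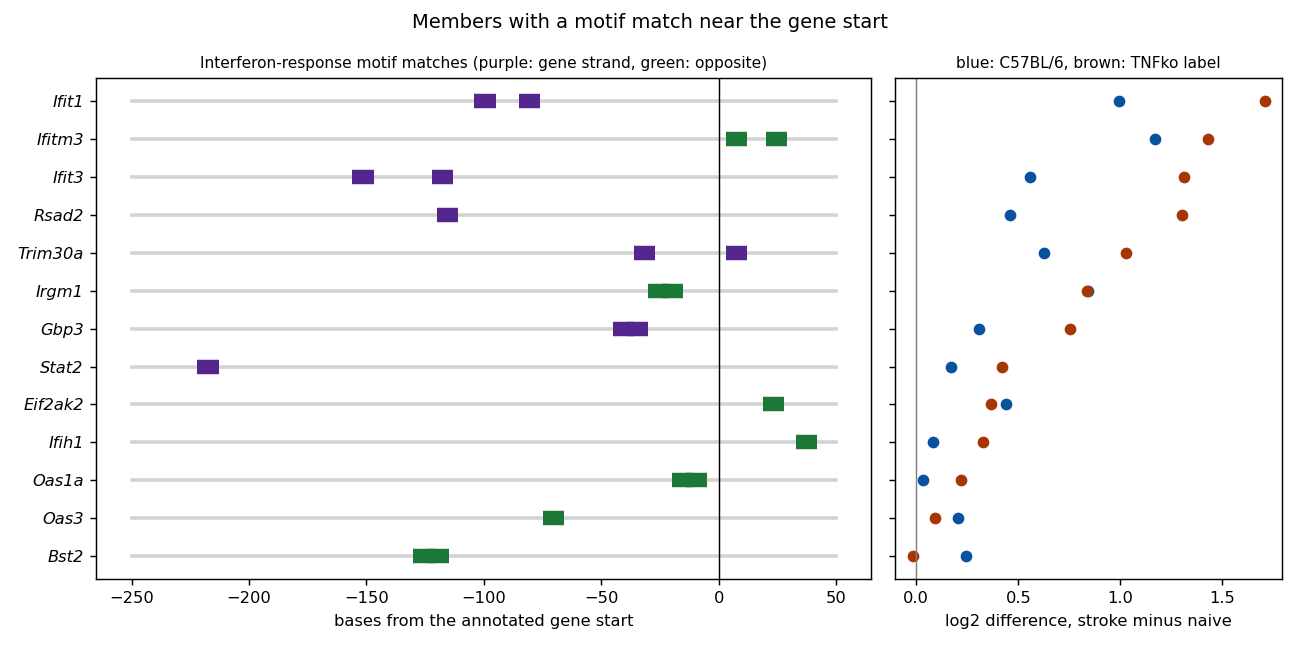
Left, the position of each match to the core motif in bases from the annotated gene start, for the 13 members that hold one (purple on the gene's strand, green on the opposite strand, grey the window searched). The 2 marks of Trim30a are each counted from a different annotated start and may be the same bases. Right, the log2 difference of stroke minus naive of the same members in C57BL/6 (blue) and in the arrays labelled TNF knockout (brown). Ifit1, at the top, changed by 1.71 in the knockout label and Bst2, at the bottom, by -0.02, although both hold the motif before their start.

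Probe set values were deposited on the log2 scale, between 1.42 and 14.53, the medians of the arrays lay between 6.01 and 6.05, and the number of arrays limits the precision. Arrays of 1 group correlated at 0.991 to 0.996. The labels number the arrays as replicates without saying whether each came from its own mouse. If some did not, the p-values below measure no more than the spread between samples, which may be technical. All C57BL/6 arrays carried 1 sample-name prefix (KL42) and the knockout label carried KL76 or KL82, so label and prefix cannot be told apart. Tnf itself, the gene named in the label, read 5.01 to 5.72 in the 8 C57BL/6 arrays and 6.14 to 6.99 in the 8 arrays labelled TNF knockout. It was thus higher and not lower under that label (limma log2 difference 1.11 ± 0.14 (SE) in naive mice, adjusted p = 0.00056), and which part of the gene its probe set covers was not examined. A comparison of the 2 labels below is therefore a comparison of arrays so labelled.

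On these arrays most of the members were dim. In naive C57BL/6 brain 29 of the 40 had a mean below the lowest array median, and 19 were below it in every group. No detection p-values were used, so it is not known which dim members were above background. Over the members, the array means were 5.60, 5.67, 5.71 and 5.71 in naive C57BL/6 and 5.54, 5.56, 5.61 and 5.62 in the naive knockout label. After stroke they were 5.96, 5.86, 5.96 and 5.95 in C57BL/6 and 6.18, 5.86, 6.13 and 6.26 in the knockout label. Within each label every stroke array lay above every naive array.

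Stroke raised 15 of the 40 members in the arrays labelled TNF knockout and 4 in C57BL/6 (limma, Benjamini-Hochberg adjusted p under 0.05 over all 19938 genes). None was lower. Of all genes, 0.537% were higher by this rule in the knockout label and 1.34% in C57BL/6 (0.105% and 0.336% were lower). At an unadjusted p under 0.05, 28 members were higher and 0 lower in the knockout label (4.22% and 4.17% of all genes), and 19 and 0 in C57BL/6 (9.74% and 7.34% of all genes). The 4 of C57BL/6, Ifit1, Irgm1, Trim30a and Ifitm3, were 4 of the 15 of the knockout label. The median log2 change of the members was 0.41 in the knockout label against 0.00 over all genes, and 0.20 in C57BL/6 against -0.01 over all genes. The change was above 0 in 34 of the 40 members in C57BL/6. In the knockout label it was 0 or above in 37, among them Cmpk2 at 0.00. The naive and stroke arrays of 1 label did not overlap in 19 members in the knockout label (2.8% of all genes) and in 11 in C57BL/6 (5.03% of all genes), all of them higher after stroke. Of all genes, 3.07% and 3.23% were lower without overlap.

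**Figure D2:**
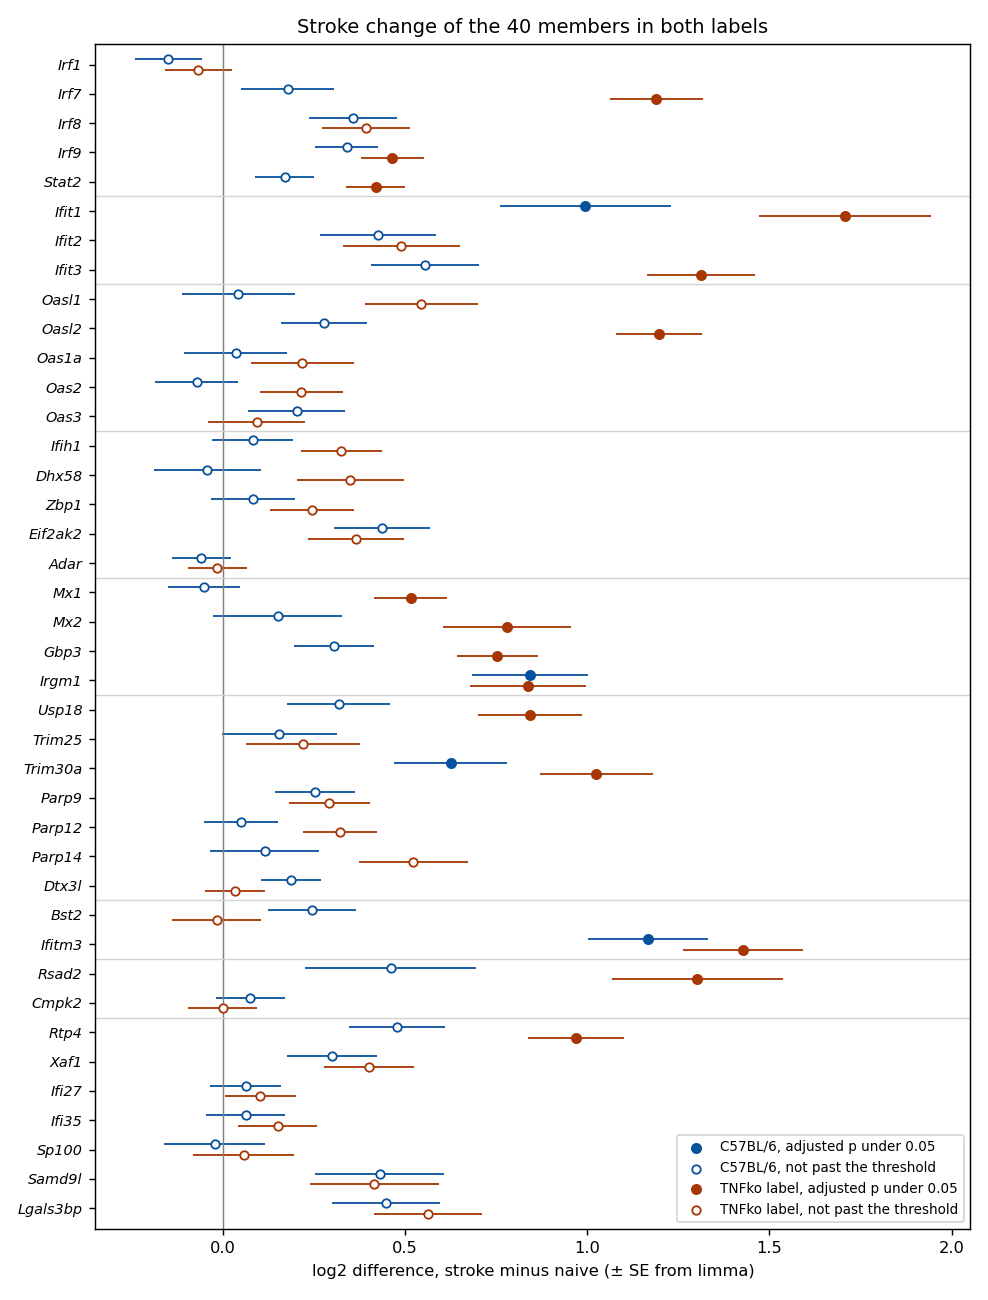
Log2 difference of stroke minus naive (x axis, ± SE from limma) for each of the 40 members, grouped by role, in C57BL/6 (blue) and in arrays labelled TNF knockout (brown). Filled points passed an adjusted p of 0.05: 4 in C57BL/6 and 15 in the knockout label.

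Among the regulators, Irf7, the transcription factor that amplifies type I interferon production, differed most in its change between the labels. Its 4 naive values were 5.82, 5.65, 5.83 and 5.96 in C57BL/6 and 5.16, 5.65, 5.29 and 5.31 in the knockout label. After stroke they were 5.94, 6.09, 6.09 and 5.85 in C57BL/6 and 6.75, 6.10, 6.59 and 6.73 in the knockout label. In the knockout label every stroke array was above every naive array, by 1.19 ± 0.13 on average (adjusted p = 3.0e-05), whereas in C57BL/6 the groups overlapped (0.18 ± 0.13, adjusted p = 0.50). Stat2, which acts in a complex with Irf9, read 7.16, 7.20, 7.19 and 7.12 in the naive knockout label and 7.56, 7.47, 7.62 and 7.70 after stroke, with no overlap (0.42 ± 0.08, adjusted p = 0.0137). Irf9, the DNA-binding partner of that complex, rose by 0.46 ± 0.09 in the knockout label (adjusted p = 0.0107) and did not reach the threshold in C57BL/6 at 0.34 ± 0.09 (adjusted p = 0.0505), where the arrays did not overlap either. Irf8, a factor of microglia and other myeloid cells, changed by 0.39 and 0.36 in the knockout label and C57BL/6, past the threshold in neither. Irf1, a factor induced chiefly by interferon gamma, changed by -0.07 and -0.15. Its other probe set gave 0.17 and -0.18, so the 2 disagreed in sign in the knockout label.

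The IFIT proteins bind viral RNA and block its translation. Ifit1 read 4.88, 5.12, 4.61 and 4.59 in naive C57BL/6 and 6.15, 5.62, 5.86 and 5.55 after stroke. Arrays of the knockout label read 4.78, 4.22, 5.11 and 5.14 before and 6.96, 5.65, 6.64 and 6.83 after. The stroke arrays were above the naive ones in both labels, by 1.00 ± 0.24 (adjusted p = 0.037) and 1.71 ± 0.24 (adjusted p = 0.00053). The second is the largest change of any member, a 3.27-fold difference of the summarised signal. Ifit3 read 5.46, 5.76, 5.54 and 5.81 in the naive knockout label and 7.23, 6.56, 6.83 and 7.20 after stroke, a rise of 1.31 ± 0.15 (adjusted p = 6.0e-05). In C57BL/6 its change was 0.56 ± 0.15 (adjusted p = 0.064), with 5.53 to 5.89 in naive arrays and 5.97 to 6.60 after stroke. Ifit2, beside Ifit3 on chromosome 19, changed by 0.49 in the knockout label and 0.42 in C57BL/6, past the threshold in neither.

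The OAS enzymes make a second messenger that activates an RNA-cutting nuclease, and the OAS-like proteins tune RNA sensing. Only 1 of these 5 members passed. Oasl2 read 5.82, 5.35, 5.68 and 5.92 in the naive knockout label and 6.80, 6.73, 6.94 and 7.09 after stroke, and these arrays did not overlap (1.20 ± 0.12, adjusted p = 1.0e-05). In C57BL/6 it read 6.16, 5.90, 6.34 and 6.29 before and 6.47, 6.38, 6.39 and 6.56 after, which also did not overlap and differed by 0.28 ± 0.12 (adjusted p = 0.24). Oasl1 changed by 0.54 in the knockout label and 0.04 in C57BL/6. Oas1a, Oas2 and Oas3, the synthetases themselves, changed by 0.09 to 0.22 in the knockout label, where none passed.

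The nucleic acid sensors among the members were likewise below the threshold in both labels. Ifih1, which encodes the RNA sensor MDA5, changed by 0.32 and Dhx58, which encodes its relative LGP2, by 0.35 in the knockout label. Zbp1, a sensor of left-handed nucleic acid, changed by 0.24 there. Eif2ak2, the kinase that halts translation on double-stranded RNA, changed by 0.36 in the knockout label and 0.44 in C57BL/6. Adar, an RNA-editing enzyme that keeps self RNA from these sensors, changed by -0.02 and -0.06.

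All 4 GTPases passed in the knockout label, but Irgm1, Mx1 and Mx2 did not with the sample-name prefix as a block (adjusted p = 0.107, 0.097 and 0.126). Irgm1, an immunity-related GTPase known for its role in autophagy, rose in both labels. Its naive arrays read 5.89, 6.00, 6.07 and 5.78 in C57BL/6 and 5.78, 6.01, 5.97 and 6.14 in the knockout label, and its stroke arrays 6.48, 6.45, 7.28 and 6.90 and 6.74, 6.46, 6.87 and 7.18. No stroke array overlapped a naive one (0.84 ± 0.16 in each label, adjusted p = 0.00996 in C57BL/6 and 0.0129 in the knockout label). The difference between those changes was -0.01 ± 0.23. Gbp3, a guanylate-binding protein, read 5.58, 5.91, 5.91 and 6.01 before and 6.62, 6.42, 6.55 and 6.83 after in the knockout label (0.75 ± 0.11, adjusted p = 0.00101). In C57BL/6 it changed by 0.30 ± 0.11 (adjusted p = 0.17). Mx1, an antiviral dynamin-like GTPase whose gene carries a disrupting deletion in most laboratory mouse strains, read 3.08 to 3.35 before and 3.72 to 3.89 after in the knockout label (0.52 ± 0.10, adjusted p = 0.0134). These are low values, and in C57BL/6 the same probe set read 3.32 to 3.57 before and 3.11 to 3.64 after. Mx2 changed by 0.78 ± 0.18 (adjusted p = 0.0453), with a stroke array at 4.07 below the highest naive array at 4.18, and with each array left out in turn the call held 5 times in 16.

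Usp18, the protease that removes ISG15 and dampens signalling at the interferon receptor, read 4.99, 4.76, 5.01 and 4.87 in the naive knockout label and 5.83, 5.21, 5.87 and 6.09 after stroke. It rose there by 0.84 ± 0.14 (adjusted p = 0.0041) and changed by 0.32 ± 0.14 in C57BL/6 (adjusted p = 0.26). Trim30a, a TRIM protein that restrains inflammatory signalling, rose in both labels. It read 5.90, 5.74, 6.08 and 5.71 in naive C57BL/6 and 6.39, 6.62, 6.73 and 6.19 after stroke. Arrays of the knockout label read 5.79, 5.23, 5.45 and 5.47 before and 6.65, 5.99, 6.64 and 6.76 after. Neither pair of groups overlapped (0.62 ± 0.15, adjusted p = 0.045, and 1.02 ± 0.15, adjusted p = 0.00123). Of the ADP-ribosyltransferases, Parp14 changed by 0.52, Parp12 by 0.32 and Parp9 by 0.29 in the knockout label, and Dtx3l, the ubiquitin ligase that partners with PARP9, by 0.03. None of these passed, nor did Trim25, a ligase that acts on the RNA sensor RIG-I, at 0.22.

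Ifitm3, a membrane protein that blocks fusion of viruses with endosomes, rose clearly in both labels. In C57BL/6 it went from 6.84, 6.78, 7.29 and 7.35 to 8.02, 7.92, 8.77 and 8.22. With the knockout label it went from 6.70, 6.77, 6.89 and 7.08 to 8.15, 8.07, 8.46 and 8.47. The lowest stroke array lay above the highest naive array in both (1.17 ± 0.16, adjusted p = 0.00062, and 1.43 ± 0.16, adjusted p = 6.8e-05). Bst2, known as tetherin for holding budding virus at the cell surface, changed by -0.02 in the knockout label and by 0.24 in C57BL/6.

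Rsad2 encodes viperin, which makes a chain-terminating nucleotide from CTP, and Cmpk2 encodes a nucleotide kinase that supplies its substrate. Rsad2 read 5.35, 5.20, 5.46 and 4.73 in the naive knockout label and 7.23, 5.64, 6.42 and 6.66 after stroke, a wide spread with no overlap (1.30 ± 0.24, adjusted p = 0.0085). In C57BL/6 it read 5.46, 4.89, 5.26 and 5.64 before and 6.04, 5.71, 5.67 and 5.67 after (0.46 ± 0.24, adjusted p = 0.32). Cmpk2, the next gene on the chromosome, read 6.91, 6.92, 7.31 and 7.20 before and 7.12, 6.99, 7.14 and 7.09 after in the knockout label, a change of 0.00 ± 0.10.

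Of the 7 other members, Rtp4, a chaperone-like protein first known for odorant and opioid receptors, was the one that passed in the knockout label. It read 5.44, 5.65, 5.57 and 5.82 before and 6.56, 6.34, 6.64 and 6.82 after (0.97 ± 0.13, adjusted p = 0.00043). In C57BL/6 its change was 0.48 ± 0.13 (adjusted p = 0.071), with overlapping arrays. Lgals3bp, a secreted glycoprotein, changed by 0.56 and 0.45, Samd9l, a translation inhibitor, by 0.42 and 0.43, and Xaf1, a pro-apoptotic protein, by 0.40 and 0.30 in the knockout label and C57BL/6. Sp100, a nuclear body protein, changed by 0.06 and -0.02, and Ifi27 and Ifi35 by 0.10 and 0.15 in the knockout label.

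**Figure D3:**
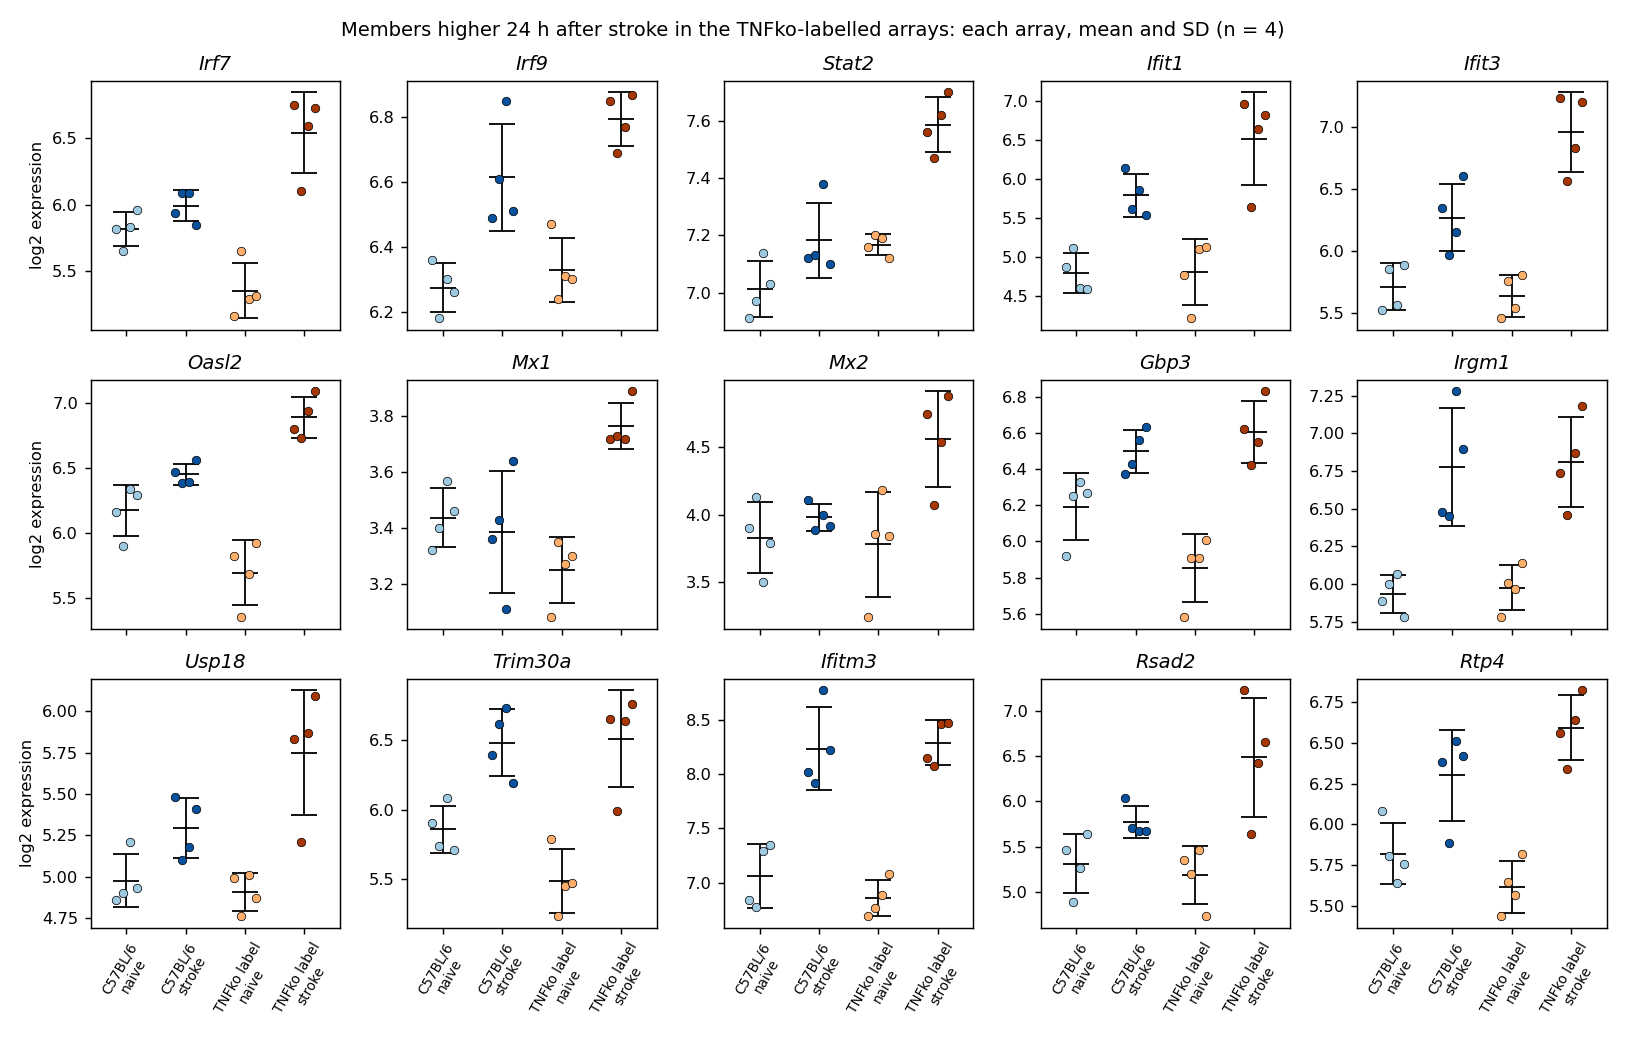
Log2 expression (y axis, own scale per gene) of the 15 members that passed in the knockout label, for each array of the 4 groups, with the mean and SD (n = 4). The Ifitm3 stroke arrays start at 7.92, above every naive array, whereas the Irf7 stroke arrays are separate from the naive ones only in the knockout label.

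Before stroke no member passed the test between the labels (limma; 0.221% of all genes were higher and 0.166% lower in the knockout label). At an unadjusted p under 0.05, 0 members were higher and 5 were lower (8.43% and 8.21% of all genes). The member differences were above 0 in 11 of 40, with a median of -0.07 against -0.01 over all genes. Oasl2 differed by -0.48 ± 0.12 (adjusted p = 0.081) and Irf7 by -0.46 ± 0.13 (adjusted p = 0.099), both lower in the knockout label and with overlapping arrays. The arrays did not overlap for Oasl1, Bst2 and Ifi27, which were lower in the knockout label without passing the test (4.15% of all genes were lower without overlap, and 4.5% higher, but 0 members).

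After stroke, Stat2 and Ifit3 were higher in the knockout label than in C57BL/6 (0.166% of all genes were higher and 0.271% lower). Stat2 read 7.12, 7.13, 7.38 and 7.10 in C57BL/6 and 7.47 to 7.70 in the knockout label, with no overlap (0.41 ± 0.08, adjusted p = 0.024). Ifit3 read 6.35, 5.97, 6.15 and 6.60 in C57BL/6, and 1 array of the knockout label, at 6.56, fell within that range (0.69 ± 0.15, adjusted p = 0.042). The differences were above 0 in 33 of the 40 members, with a median of 0.13 against -0.01 over all genes. Irf7, Oasl2 and Mx1 were also higher without overlap, by 0.55, 0.44 and 0.38, and did not pass the threshold (adjusted p = 0.067, 0.116 and 0.103). Together with Stat2 they made 4 members that were higher without overlap (3.04% of all genes). At an unadjusted p under 0.05, 11 members were higher and 2 lower (5.46% and 5.81% of all genes). Bst2 went the other way, with 6.49, 6.08, 6.35 and 6.75 in C57BL/6 and 6.06, 5.71, 5.91 and 5.94 in the knockout label (-0.51 ± 0.12, adjusted p = 0.072), the 1 member that was lower without overlap (2.76% of all genes).

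The change after stroke was not shown to differ between the labels for any member (limma test of the difference of the changes; 0% of all genes passed in either direction). At an unadjusted p under 0.05, 12 members had a larger change in the knockout label and 0 a smaller one (3.69% and 3.73% of all genes). The difference of the changes was above 0 in 33 of the 40, with a median of 0.17 against -0.01 over all genes. It was 1.01 ± 0.18 for Irf7 and 0.92 ± 0.17 for Oasl2 (adjusted p = 0.114 for each). For Irf7 it is made of a label difference of -0.46 in naive arrays and 0.55 after stroke, and for Oasl2 of -0.48 and 0.44. For Ifit3, Rsad2 and Ifit1 it was 0.76, 0.84 and 0.71, and their naive levels differed between the labels by -0.07, -0.13 and 0.01. The SE of this test is larger than that of the others, with a median over all genes of 0.141 against 0.0994.

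**Figure D4:**
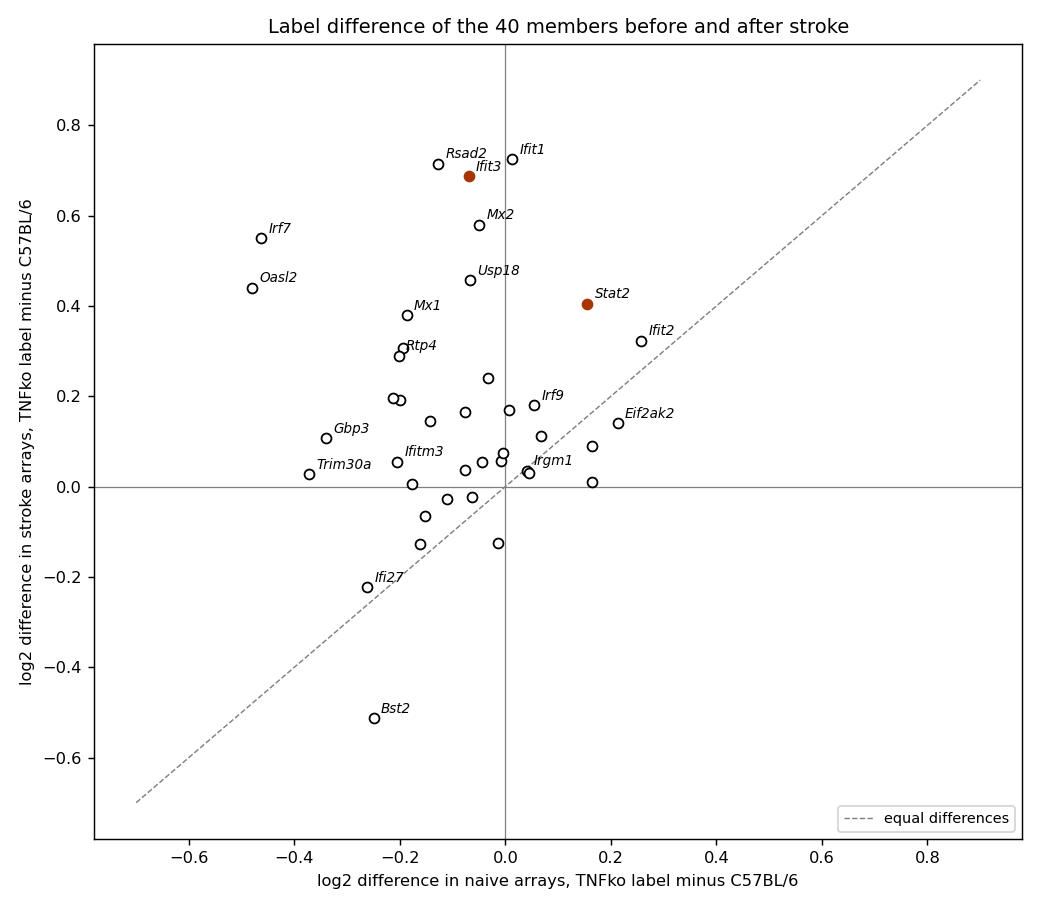
Log2 difference between labels (TNF knockout label minus C57BL/6) of each of the 40 members in naive arrays (x axis) and in stroke arrays (y axis). The filled points, Stat2 and Ifit3, passed an adjusted p of 0.05 after stroke, and Irf7 and Oasl2 are low on the x axis and high on the y axis. Points above the dashed line had a larger stroke change in the knockout label.

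The 4 stroke arrays of the knockout label were not alike. The second was the lowest of its group in 14 of the 15 members that passed and in 29 of all 40, and the fourth was the highest in 11 of the 15 and 22 of the 40. The 15 were chosen with these arrays, so this describes them and tests nothing. Among the 92 other genes that were higher after stroke in that label, the second array was the lowest in 43. Its mean over the microglial markers was 6.29, at the top of the 6.02 to 6.29 of its group, and over the markers of infiltrating monocytes it was 5.01, at the bottom of the 5.01 to 5.28. Over the neutrophil markers its mean was 4.32, in a group range of 4.31 to 4.62, and was not the lowest. The part of cell content in this was not tested. Without this array, 16 members passed in the knockout label, with Parp14 added to the 15 (0.507% of all genes, against 0.642% in the full data). After stroke 6 were higher than in C57BL/6, with Ifit1, Irf7, Rsad2 and Usp18 added (0.336% of all genes passed, against 0.436%). Irf7 then also passed the test of the difference of the changes. Without the fourth array, 10 members passed in the knockout label (0.346% of all genes) and 0 between the labels after stroke (0.271%). The latter count was also 0 without the first or the third array of that group (0.286% and 0.326% of all genes). It was 0 as well without the first C57BL/6 stroke array (0.602%). In C57BL/6 the count of 4 became 2 without the first or the fourth naive array or without the third stroke array. The share of all genes that passed fell there too, from 1.68% to 0.697%, 1.14% and 0.537%. Without the second naive C57BL/6 array, Oasl2 passed between the labels before stroke and in the test of the difference. Over the 16 fits that each left out 1 array, the calls of Ifit1 and Trim30a in C57BL/6 held in 9 and 7, and the calls of Stat2 and Ifit3 between the labels after stroke in 10 and 6.

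**Figure D5:**
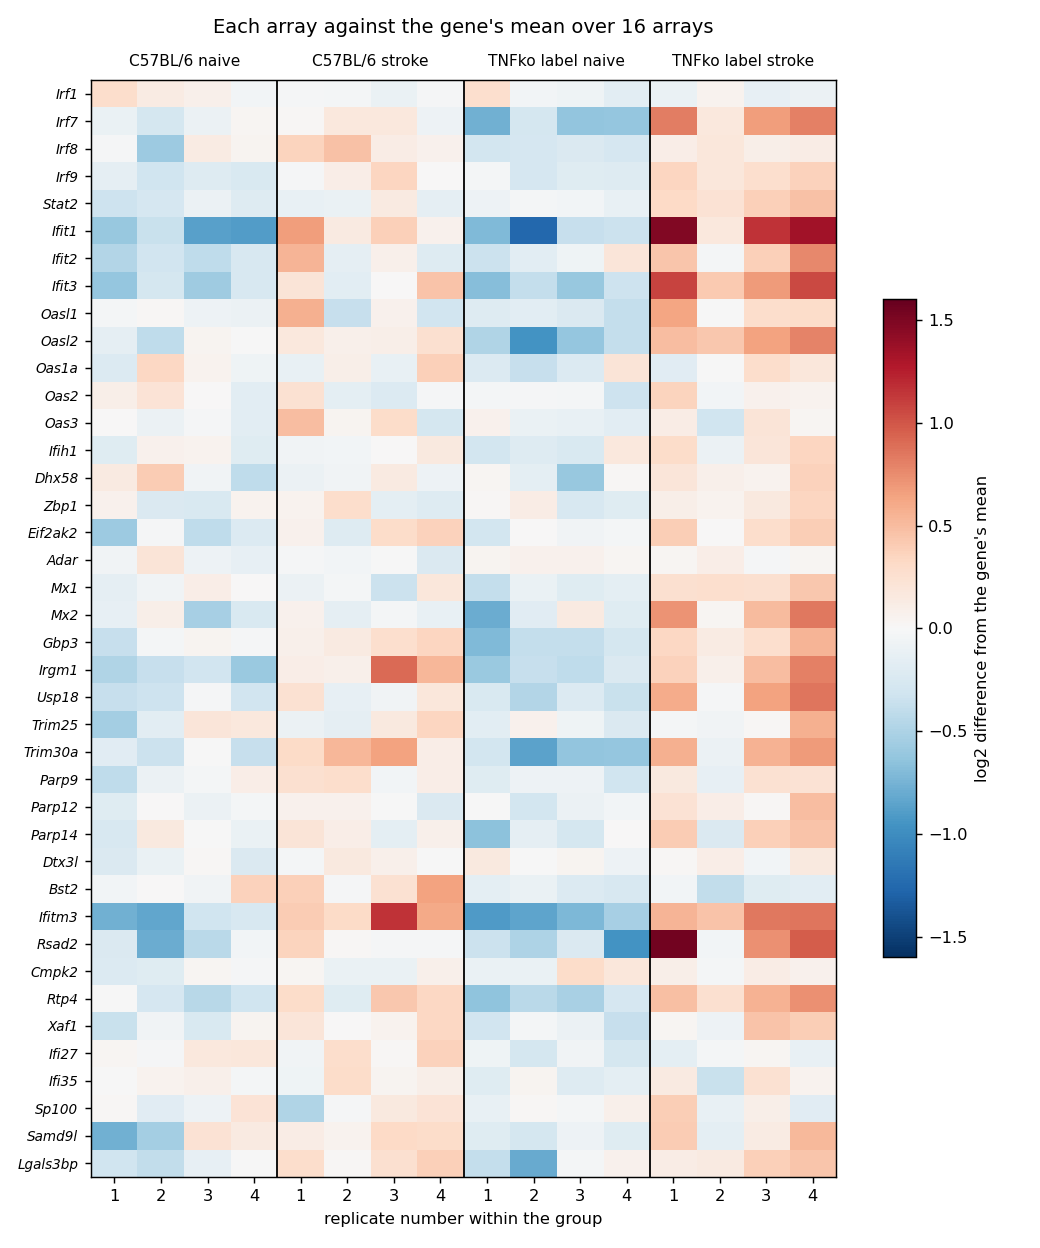
Log2 difference of each array from the gene's mean over all 16 arrays, for the 40 members (rows) and the replicates of the 4 groups (columns). Red is above and blue below the mean. The second stroke array of the knockout label is paler than the other 3 of its group, and the fourth is the reddest for most of the 15 members that passed.

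The knockout label held 2 sample-name prefixes, and the changes were computed within each. Within KL76 (1 stroke and 3 naive arrays) the median change was 0.50 and within KL82 (3 stroke and 1 naive) it was 0.39, against -0.003 over all genes in each. Over all 40 members, 36 were above 0 in each. The 15 members that passed, which were chosen on these same arrays, were above 0 in both, from 0.38 to 2.26 in KL76 and from 0.48 to 1.51 in KL82. Ifit1 changed by 2.26 in the first and 1.23 in the second. Each prefix has 1 array on one side, so the values within it have no test. With the prefix as a block 11 of the 15 passed (0.361% of all genes), and Stat2 (adjusted p = 0.063), Mx1, Mx2 and Irgm1 did not.

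Other genes of the pathway were read from lists beside the 40. Of the interferons themselves, 15 of 19 listed were on the table, none was higher after stroke in either label and 1, Ifnab, was lower in C57BL/6 (-0.51 ± 0.13, adjusted p = 0.047). It read 4.71, 4.82, 4.70 and 5.07 before and 4.31, 4.53, 3.97 and 4.45 after. Of 13 receptors, kinases and feedback genes, Socs3, an inhibitor of cytokine receptor signalling, rose in both labels, by 0.62 in C57BL/6 (adjusted p = 0.0050) and 0.82 in the knockout label (adjusted p = 0.00025). Ifngr1, a chain of the interferon gamma receptor, rose in C57BL/6 by 0.46 (adjusted p = 0.0173) and changed by 0.00 in the knockout label. The other 11 did not pass in either. Of all genes, 1.34% were higher and 0.336% lower after stroke in C57BL/6, and 0.537% and 0.105% in the knockout label.

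Of 17 sensors and adaptors that lead to interferon production, 3 rose in C57BL/6 and 2 in the knockout label (1.34% and 0.537% of all genes). Myd88, the adaptor of most Toll-like receptors, rose in both, by 0.68 (adjusted p = 0.00051) and 0.55 (adjusted p = 0.0041). Sting1, the adaptor of cytosolic DNA sensing, rose in C57BL/6 from 6.04, 6.13, 6.12 and 6.09 to 6.78, 6.94, 6.77 and 6.60 (0.68 ± 0.09, adjusted p = 0.00040). In the knockout label its change was 0.32 ± 0.09 (adjusted p = 0.18). Tlr7, a sensor of single-stranded RNA, rose by 0.56 in C57BL/6 (adjusted p = 0.037), and Ddx58, which encodes RIG-I, rose by 0.64 in the knockout label (adjusted p = 0.021). None of these passed the test of the difference of the changes.

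Of 40 further interferon-stimulated genes, 4 rose after stroke in C57BL/6 and 6 in the knockout label, with median changes of 0.17 and 0.29. Of all genes, 1.34% and 0.537% were higher by this test. Between the labels after stroke, 1 of these 40 was higher in the knockout label (0.166% of all genes). Cxcl10, a chemokine that attracts activated T cells and a target of interferons and of NF-kB, had the largest rise. It read 5.11, 4.70, 4.90 and 4.91 in naive C57BL/6 and 8.19, 6.51, 7.28 and 7.21 after stroke. Arrays of the knockout label read 4.90, 4.67, 4.69 and 5.17 before and 8.62, 7.16, 8.31 and 8.09 after. The rises were 2.39 ± 0.28 (adjusted p = 9.5e-05) and 3.19 ± 0.28 (adjusted p = 2.6e-06), and the second stroke array was the lowest of its group in both labels. Ifitm1, next to Ifitm3 on chromosome 7, rose by 0.76 and 1.00 (adjusted p = 0.0124 and 0.00119). Ms4a4c, which is also on the list of monocyte markers, rose by 0.58 and 0.68 (adjusted p = 0.045 and 0.029). Trim21, an antibody receptor in the cytosol, rose in the knockout label by 0.47 (adjusted p = 0.030).

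Markers of cells that could carry these transcripts were read on the same arrays as the mean log2 value of each list. For the counts below, 1.34% of all genes were higher and 0.336% lower after stroke in C57BL/6. In the knockout label the shares were 0.537% and 0.105%, and 0.271% of all genes were lower between the labels after stroke. The 7 monocyte markers ranged from 4.82 to 4.93 in naive and 4.87 to 5.35 in stroke C57BL/6 arrays, and from 4.82 to 4.92 and 5.01 to 5.28 in the knockout label. Of these 7, 1 (Ms4a4c) passed in each label. The 10 neutrophil markers ranged from 4.19 to 4.38 in naive and 4.20 to 4.60 in stroke C57BL/6 arrays, and from 4.13 to 4.22 and 4.31 to 4.62 in the knockout label. Of these, 0 passed in either label. The 8 microglial markers ranged from 6.29 to 6.35 in naive and 6.24 to 6.58 in stroke C57BL/6 arrays, and from 6.24 to 6.40 and 6.02 to 6.29 in the knockout label. Fcrls and Siglech passed in C57BL/6, in opposite directions, and Gpr34 was lower in the knockout label. The 6 astrocyte markers ranged from 9.78 to 9.90 in naive and 9.84 to 10.07 in stroke C57BL/6 arrays, and from 9.72 to 9.92 and 9.76 to 9.93 in the knockout label. Gfap rose in both labels, and the median change of the list was 0.12 in C57BL/6 and -0.04 in the knockout label. The 6 endothelial markers ranged from 6.96 to 7.21 in naive and 7.05 to 7.41 in stroke C57BL/6 arrays, and from 7.03 to 7.15 and 6.94 to 7.01 in the knockout label. The stroke arrays of the knockout label were thus below the naive ones and below the C57BL/6 stroke arrays, without overlap, and Cldn5, a tight junction protein, was lower between the labels after stroke (-0.54 ± 0.11, adjusted p = 0.040). The 6 neuronal markers were lower after stroke without overlap in both labels, from 10.72 to 10.79 in naive and 10.60 to 10.67 in stroke C57BL/6 arrays, and from 10.77 to 10.82 and 10.64 to 10.67 in the knockout label, and 0 of 6 passed. None of the markers of T cells, NK cells or B cells passed after stroke in either label. No marker was listed at 0, the lowest value of the table being 1.42. What part cell content had in the members' changes was not tested.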

How the data were processed

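The authors deposited log2 values, 1 per probe set, for 16 arrays of labelled total RNA, which they made with software their processing notes name as GCOS, GCRMA, Partek and RMA, without the role of each. The table holds 28944 probe sets, of which 21789 have 1 gene symbol in GEO's platform annotation, 1621 several and 5534 none. Those with 1 symbol gave 19938 genes, the probe set with the highest mean standing for a gene. Array medians of 6.01 to 6.05 show that the authors had normalised between arrays, so nothing more was normalised.

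All genes and arrays entered 1 limma model of 4 group means, with limma 3.58.1 in R 4.3.3 (12 residual and 7.52 prior degrees of freedom). P-values are two-sided and adjusted by Benjamini-Hochberg over the 19938 genes tested in each contrast (threshold 0.05). Means are ± SD and changes ± SE. The members, the pathway and marker lists (161 of 188 memberships matched) and the tests were chosen with earlier results of these data known. All 40 members may be named, and up to 4 genes of each pathway list, those with the smallest p.

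The replicate numbers were not taken to pair the arrays: deviations of same-numbered arrays correlated at -0.07 to 0.34, not all of them above 0.1. Alternatives tried were median centring, quantile normalization, a filter on the dimmest 33.3% of genes, other treatments of probe sets, trended and robust variances, array weights, only the groups compared, a threshold of 0.01, the replicate number or the sample-name prefix as a block, other motifs, and leaving out each array. The scripts were tested on simulated data. Promoter sequences came from RefSeq (GRCm38.p6), which 30 members matched by symbol. Tables and figures were made with Python 3.11.15.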

Additional observations from a re-analysis of the deposited data

Results flagged for a closer look

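In 9 of the 160 groups of 4 arrays that were checked (40 members in 4 groups), 1 array stood far from the other 3, and chance alone does this in about 1 group of 20. In C57BL/6 these were Bst2 at 6.47 in the fourth naive array, Rsad2 at 6.04 in the first stroke array, and Stat2 at 7.38 and Dhx58 at 4.59 in the third stroke array. In the knockout label Oas2 read 4.78 in the fourth naive array, below the other 3. After stroke in that label, Trim30a at 5.99 and Parp14 at 5.47 were low in the second array, and Mx1 at 3.89 and Trim25 at 5.84 were high in the fourth.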

How the results depend on the processing

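The number of arrays and the dimness of most members limit these results. The count of 15 members raised by stroke in the knockout label stayed between 10 and 16 in every setting run, and all changes named there kept their direction. Leaving out 1 array at a time gave 10 to 16 there, 2 to 5 in C57BL/6 (4 in the full data), 0 to 1 between the labels before stroke (0), 0 to 6 after stroke (2) and 0 to 1 for the difference of the changes (0). Over these fits 0.346% to 0.727% of all genes passed in the knockout label and 0.537% to 3.20% in C57BL/6. Between the labels 0.115% to 0.692% of all genes passed before stroke and 0.236% to 0.602% after, and for the difference 0% to 0.0150%. Without the dimmest genes, which left 28 members, the counts were 7 in C57BL/6 (Ifit3, Irf9 and Rtp4 added), 1 between the labels before stroke (Oasl2) and 4 after (Bst2 and Irf7 added). The share of all genes that passed rose too, from 1.68% to 4.03%, from 0.386% to 1.39% and from 0.436% to 1.23%. With trended and robust variances, 4 members passed between the labels after stroke (0.813% of all genes) and 2, Irf7 and Oasl2, passed for the difference (adjusted p = 0.039 each), out of 4 genes in all. At a threshold of 0.01 the counts were 2 in C57BL/6 (0.381% of all genes) and 0 between the labels after stroke (0.181%), and with only the groups compared the latter was also 0 (0.231%). With the replicate number as a block, 8 members passed in C57BL/6 (2.80% of all genes), 15 in the knockout label (0.702%), 1 between the labels before stroke (0.707%) and 4 after (0.602%), and 1, Oasl2, for the difference, where it was the 1 gene of the whole table that passed. These numbers are not known to pair the arrays, since not every same-numbered pair correlated above 0.1. Mx2 did not pass in the knockout label with quantile normalization, median centring, only the groups compared, the replicate block or the prefix block. In C57BL/6, Ifit1 and Trim30a did not pass with array weights, nor Ifit1 with trended variances. The difference of the Irgm1 changes, near 0, turned sign in 8 of the 16 fits that left out an array (-0.13 to 0.16). The looser motif was in 21 members. The prefix block could not be fitted to the label comparisons. The cause of these shifts was not tested.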
